A study of Mus musculus with 60 samples.

Results

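The fractalkine pair consists of the chemokine receptor gene Cx3cr1 and the gene of its ligand, Cx3cl1. Both were taken from the count table by gene symbol, each from its single transcript row (NM_009987 for Cx3cr1, NM_009142 for Cx3cl1), so the members are 2 of the 22869 genes of the table. They are described across 60 libraries of mouse microglia, the resident macrophages of the brain, all from the C57BL/6N strain. The untreated groups were embryonic day 18 (E18, 3 female and 4 male libraries), postnatal day 4 (P4, 4 and 4) and postnatal day 14 (P14, 10 and 10). The adult groups, at postnatal day 60 (P60), had received saline (7 female and 5 male) or lipopolysaccharide (LPS, 6 and 7), an endotoxin of bacterial membranes. The labels give no genetic modification, and no dose, route or time after injection for the LPS. Female and male refer to the letter in the library title.

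CX3CL1 is made as a membrane-anchored chemokine on a mucin-like stalk, which metalloproteases cut to release a soluble form. In the brain it is known mainly as a product of neurons, and activated endothelium makes it in response to inflammatory cytokines. CX3CR1 is a G protein-coupled receptor carried in the brain almost wholly by microglia and other macrophages, and patrolling monocytes also carry it. Mice without the receptor are known for stronger microglial cytokine release after LPS and for altered synapse maturation.

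The 250 bases before the annotated start of each gene are shown because the transcripts of the pair moved differently in these libraries. Both were taken from RefSeq on GRCm38.p6, a later assembly than that of the counts, and are written 5′ to 3′ on the strand of the gene, with motif matches in capitals.
Cx3cr1 (chr9:120068297-120068546, minus strand): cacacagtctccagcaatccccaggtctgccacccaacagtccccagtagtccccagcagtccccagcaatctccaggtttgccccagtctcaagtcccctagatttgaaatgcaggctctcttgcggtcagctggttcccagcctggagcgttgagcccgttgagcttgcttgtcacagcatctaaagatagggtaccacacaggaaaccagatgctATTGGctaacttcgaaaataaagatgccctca
Cx3cl1 (chr8:94771930-94772179, plus strand): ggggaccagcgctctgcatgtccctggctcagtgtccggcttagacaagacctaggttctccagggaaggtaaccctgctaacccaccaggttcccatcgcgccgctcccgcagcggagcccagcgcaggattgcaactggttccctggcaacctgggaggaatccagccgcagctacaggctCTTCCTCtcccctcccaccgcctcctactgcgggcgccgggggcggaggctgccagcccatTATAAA
The motifs searched, on both strands, were the TATA box TATAAA, the CCAAT box CCAAT, the PU.1 letters GAGGAAG and an NF-kB motif given here by name only, and no matches overlapped. The Cx3cr1 window held 1 CCAAT box, read as ATTGG on the printed strand and beginning at position -32 from the start. The Cx3cl1 window held 1 TATA box at position -6 and 1 PU.1 match, read as CTTCCTC on the printed strand, at position -67. Of 32851 promoters of the same length, 12.4% held the TATA box, 33.85% the CCAAT box, 10.6% the PU.1 letters and 1.41% the NF-kB motif. The GC content was 53.6% for Cx3cr1 and 64.8% for Cx3cl1, against a median of 52.4% over all promoters. A match is a description of the letters only.

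Library totals ran from 802016 to 3497454 counts with a median of 1907007.5 and levels are given as CPM, counts scaled to a common library total. All 11 microglial markers were detected in every condition, with a median summed level of 5007 CPM at E18, 11123 at P4, 21807 at P14, 27598 at P60 with saline and 21497 at P60 with LPS. Neuronal markers summed to a median of 2065 CPM at E18, 157 at P4, 51.5 at P14 and 22.3 and 12.1 at P60 with saline and LPS, where Nefl and Slc17a7, respectively, were at 0 in every library. Transcripts of choroid plexus were present, and Ttr exceeded 10% of counts in 3 libraries, male E18 library 4 with 24.8%, male E18 library 3 with 10.4% and female P60 saline library 6 with 11.99%. The sex given in the sample characteristics disagreed with the title in 10 libraries, 5 of them at P60, and sex-linked genes followed the title in 59 of 60, the exception being male E18 library 4. The labels do not say that libraries came from separate animals, so p-values measure the spread between these libraries, which may be technical. Each date in the library descriptions held libraries of 1 stage and 1 treatment, so effects of date and of stage or treatment cannot be told apart.

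Cx3cr1, the receptor, was among the most abundant transcripts after birth, and its level rose at each step from untreated E18 to P60 with saline. At E18 its level was 692, 577 and 411 CPM in the female libraries and 601, 364, 303 and 54.1 CPM in the male libraries. The lowest value belonged to the male library of highest Ttr. At P4 the female libraries held 1402, 2120, 1984 and 2258 CPM and the male libraries 1197, 1755, 1632 and 2761 CPM. Every P4 library was above every E18 library, and at P4 the sexes overlapped. The P14 libraries ran from 1357 CPM in the lowest to 4164 in the highest with a median of 2471, overlapping those of P4. With saline at P60 the 7 female libraries ran from 2622 to 6156 CPM with a median of 5185, and the male libraries held 3420, 5829, 3491, 4312 and 5855 CPM. The lowest female value was that of the saline library of high Ttr, and P60 and P14 libraries overlapped.

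Mean Cx3cr1 levels were 429 ± 217 CPM (SD, n = 7) at E18, 1888 ± 501 (n = 8) at P4, 2789 ± 761 (n = 20) at P14 and 4755 ± 1120 (n = 12) at P60 with saline. Among 22869 genes ranked by mean CPM these placed it at 211, 18, 16 and 9. In edgeR's quasi-likelihood test with Benjamini-Hochberg adjustment over all 13853 genes tested, Cx3cr1 rose from E18 to P4 by 2.30 ± 0.28 on the log2 scale (SE, a 4.92-fold rise, adjusted p = 7.7e-09), a step at which 48.3% of genes tested were called. It rose from P4 to P14 by 0.86 ± 0.22 (adjusted p = 0.00136, 41.5% of genes called) and from P14 to P60 by 0.73 ± 0.18 (adjusted p = 9.7e-04, 44.1% called). From E18 to P60 the rise was 3.89 ± 0.30 (adjusted p = 1.3e-15, 66.3% called).

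The later steps varied with the date in the descriptions. At P14 the level was 2576 ± 298 CPM (SD, n = 6) at the first date, 2209 ± 387 (n = 8) at the second and 3776 ± 377 (n = 6) at the third, whose libraries all lay above those of the other dates. Saline libraries at P60 held 4020 ± 849 (n = 2), 5658 ± 388 (n = 6) and 3767 ± 904 (n = 4) at their 3 dates. Against the third P14 date alone, the P60 rise was 0.22 ± 0.24 (SE, edgeR adjusted p = 0.501), and it also missed the threshold with the saline libraries of the first (0.56, adjusted p = 0.376) or the third date alone (0.43, adjusted p = 0.207). With the second P14 date alone the rise from P4 to P14 was 0.36 ± 0.24 (adjusted p = 0.316). These fits were chosen after seeing the data and hold fewer libraries. In each of them the direction was that of the full comparison.

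**Figure D1:**
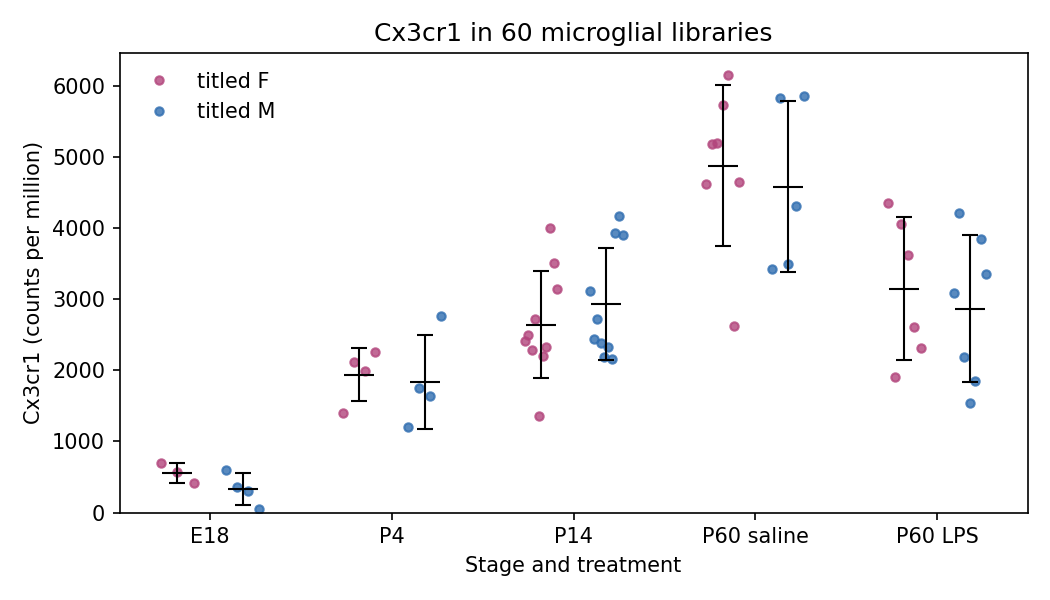
Cx3cr1 level (vertical axis, CPM, linear from 0) in each of the 60 libraries by stage and treatment, with female and male titles in separate columns; black marks are the group mean and SD. All P4 libraries, from 1197 CPM upward, sit above the E18 libraries, which end at 692, and the LPS and saline libraries at P60 overlap.

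Over the 60 libraries Cx3cr1 followed the summed pan-myeloid (Pearson r = 0.959) and microglial genes (0.946). It did not follow the border macrophage (-0.43) or classical monocyte markers (-0.64) over the stages. After subtracting group means r was 0.863 with the pan-myeloid and 0.771 with the microglial sum. With the border macrophage and classical monocyte sums it was then 0.208 and -0.267. In bulk libraries fewer cells of a type and less RNA per cell cannot be told apart. The Cx3cr1 counts were therefore also set against the summed counts of 9 pan-myeloid genes (Aif1, Cd53, Coro1a, Csf1r, Fcer1g, Itgam, Laptm5, Ptprc and Tyrobp). Csf1r weighed most in this sum, with a mean of 7447 CPM at P60 with saline, where the sum had a median of 14728. Per 1000 pan-myeloid counts there were 117 ± 47.9 Cx3cr1 counts (SD, n = 7) at E18, 225 ± 12.1 (n = 8) at P4, 213 ± 24.5 (n = 20) at P14 and 336 ± 36.1 (n = 12) at P60 with saline. The ratio rose from E18 to P4 by 1.14 on the log2 scale (two-sided exact permutation test, adjusted p = 7.8e-04 over 5 comparisons, n = 8 and 7). Male E18 library 4, that of highest Ttr, held 23.2 per 1000, and the other E18 libraries 109 to 181. Leaving out 1 library at a time, the rise was 0.79 to 1.28. From P4 to P14 the ratio differed by -0.09 (permutation test, adjusted p = 0.151). From P14 to P60 it rose by 0.66 (permutation test, adjusted p = 1e-04, the smallest the resamples can give), from 169 to 260 in the P14 libraries to 272 to 393 in the saline libraries, without overlap. With the 11 microglial markers in place of the pan-myeloid genes, the P4 to P14 difference was -0.45 (permutation test, adjusted p = 1e-04). On that measure P14 and P60 saline libraries overlapped. They held 124 ± 17.7 (93.4 to 154) and 173 ± 32.4 (82.0 to 212) Cx3cr1 counts per 1000.

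**Figure D2:**
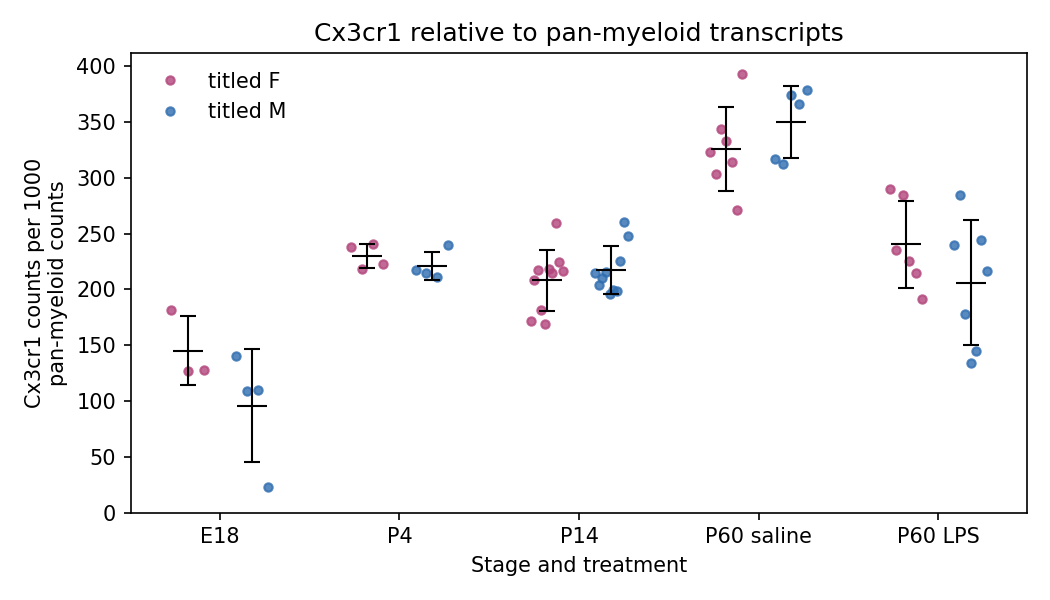
Cx3cr1 counts per 1000 summed counts of 9 pan-myeloid genes (vertical axis, linear from 0) in each library by stage and treatment, female and male titles apart; black marks are the group mean and SD. P4 and P14 lie at a similar height (225 and 213 on average), saline libraries at P60 lie above them (336), and male LPS libraries lie below all male saline libraries.

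After LPS, Cx3cr1 was lower than after saline in the mean of the sexes, with overlapping libraries. Female LPS libraries ran from 1908 to 4357 CPM with a median of 3119, and male LPS libraries from 1537 to 4215 with a median of 3088. In both sexes they overlapped the saline libraries. The mean with LPS was 2996 ± 985 CPM (SD, n = 13), rank 13 of 22869. In edgeR with Benjamini-Hochberg adjustment over 10538 genes, the difference was -0.60 ± 0.23 in females (SE, adjusted p = 0.173, 5.06% of genes called) and -0.55 ± 0.24 in males (adjusted p = 0.112, 19.5% called). Averaged over the sexes Cx3cr1 fell by 0.57 ± 0.17 on the log2 scale (log2 change -0.57, adjusted p = 0.0185, 14.4% of genes called). The LPS effect did not differ detectably between the sexes (difference of 0.06 ± 0.34 on the log2 scale, 95% interval -0.60 to 0.72, adjusted p = 0.943, 0.883% called).

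The fall did not hold with every set of libraries. It was -0.87 ± 0.20 (SE, edgeR adjusted p = 0.00372) against the saline libraries of the second date alone, but -0.31 (adjusted p = 1) and -0.21 (adjusted p = 0.557) against those of the first and the third. With the LPS libraries of 1 date at a time it was -0.39 (adjusted p = 0.406), -0.77 (adjusted p = 0.0723) and -0.57 (adjusted p = 0.108). Leaving out female LPS library 2, male saline library 2 or male saline library 5 moved the adjusted p to 0.0608, 0.0628 and 0.0619. Per pan-myeloid counts the difference was -0.45 in females (two-sided exact permutation test, adjusted p = 0.00583, n = 6 and 7) and -0.81 in males (adjusted p = 0.00421, n = 7 and 5). The male LPS libraries, 134 to 285 Cx3cr1 counts per 1000, lay below all male saline libraries, 312 to 379, and the female ones overlapped. Per microglial marker counts the female difference was -0.22 (exact permutation test, adjusted p = 0.324).

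Of other myeloid cells, which can also carry the pan-myeloid genes, neutrophils and classical monocytes had markers that rose with LPS. Of 7 neutrophil markers tested 7 rose in males (median log2 change 3.87) and 5 in females (2.51). Of 7 classical monocyte markers 5 and 3 rose (3.22 and 1.86). Over all genes tested, 11.9% rose in males and 4.17% in females. The sum of 9 neutrophil markers had a median of 112 CPM (98.4 to 439) in male saline, 1287 (392 to 6176) in male LPS, 75.1 (18.5 to 332) in female saline and 620 (547 to 909) in female LPS libraries. Elane was at 0 in every female P60 library and Mpo in every male LPS library. Classical monocyte markers went from a median sum of 56.0 CPM (42.1 to 75.3) to 208 (139.7 to 1022) in males and from 58.99 (36.95 to 131) to 159.8 (114 to 222) in females. The sum of 6 patrolling monocyte markers had a median of 1074 CPM (848 to 1456) in male saline and 699 (378 to 1107) in male LPS libraries. In females it was 898 (253 to 985) and 843 (596 to 1100). This sum was mostly Ace (mean of 445 CPM with saline and 334 with LPS) and Nr4a1 (439 and 420). The other members were low, with Eno3 at 14.1 and 9.42, Treml4 at 1.05 and 5.46, Cd300e at 0.875 and 4.39 and Fabp4 at 0.672 and 2.06. The sum therefore does not measure the amount of patrolling monocytes. The sum of 7 border macrophage markers was 215 (125 to 247) and 178 (78.9 to 200) in males. In females it was 214 (123 to 307) and 161 (93.8 to 252). Of the 9 pan-myeloid genes 3 rose in males and 0 in females, where 11.9% and 4.17% of all genes rose. The part of these cells in the Cx3cr1 ratios was not tested.

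Cx3cl1, the ligand, was present at low levels throughout and was lower at P14 than at P4. At E18 it stood at 45.1, 31.2 and 42.6 CPM in females and 23.8, 45.1, 58.7 and 23.4 CPM in males. At P4 the female libraries held 49.9, 35.1, 45.5 and 30.0 CPM and the male libraries 62.5, 54.9, 58.1 and 26.7 CPM. These stages overlapped throughout. At P14 the female libraries ran from 14.5 to 45.0 CPM with a median of 24.9, and the male libraries from 9.35 to 29.5 with a median of 18.4. With saline at P60 the female libraries ran from 3.42 to 25.9 CPM with a median of 15.4, while the male libraries held 55.8, 36.2, 50.9, 35.4 and 28.6 CPM. Every male saline library was above every female one. The lowest of these values rested on 3 counts. Counting error alone would give an SD of 3.68 CPM in the female saline group, below the observed SD of 8.12 CPM.

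Mean Cx3cl1 levels were 38.5 ± 12.97 CPM (SD, n = 7) at E18, 45.3 ± 13.4 (n = 8) at P4, 22.4 ± 9.01 (n = 20) at P14 and 26.2 ± 16.3 (n = 12) at P60 with saline, which placed it between ranks 5333 and 7068 of 22869. In edgeR with Benjamini-Hochberg adjustment it fell from P4 to P14 by 0.75 ± 0.20 on the log2 scale (log2 change -0.75, SE, adjusted p = 0.00193). The differences of P4 from E18 (0.29 ± 0.25, adjusted p = 0.342), of P60 from P14 (0.24 ± 0.19, adjusted p = 0.302) and of P60 from E18 (-0.22 ± 0.23, adjusted p = 0.404) did not pass. With the first P14 date alone, a fit chosen after seeing the data, the P14 difference was -0.64 ± 0.28 (adjusted p = 0.0927).

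**Figure D3:**
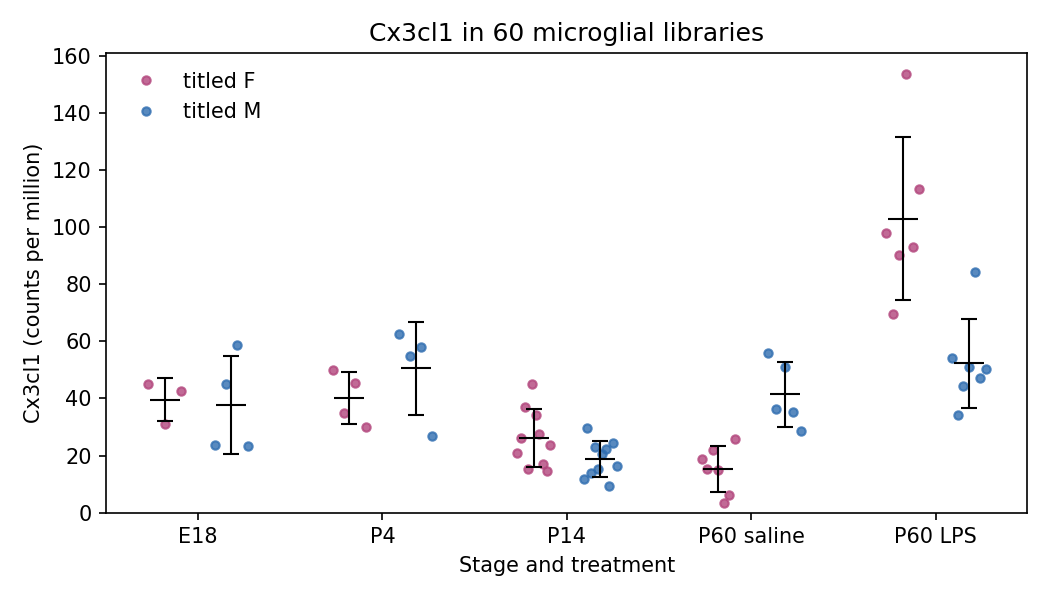
Cx3cl1 level (vertical axis, CPM, linear from 0) in each of the 60 libraries by stage and treatment, with female and male titles in separate columns; black marks are the group mean and SD. Female libraries go from 3.42 to 25.9 CPM with saline to 69.6 to 154 with LPS without overlap, while male saline and LPS libraries overlap.

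The ligand rose after LPS in the female libraries. Female LPS libraries ran from 69.6 to 154 CPM with a median of 95.6, all above the female saline libraries and above every library of the earlier stages. Male LPS libraries ran from 34.3 to 84.4 CPM with a median of 50.3 and overlapped the male saline libraries. The rise in females was 2.73 ± 0.27 on the log2 scale (SE, 6.65-fold, edgeR adjusted p = 5.7e-08), the gene of rank 18 by p among 10538. In males the difference was 0.46 ± 0.27 (1.37-fold, 95% interval -0.07 to 0.98, adjusted p = 0.234). Averaged over the sexes the ligand rose by 1.59 ± 0.19 (adjusted p = 3.4e-07).

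The LPS effect on Cx3cl1 differed between the sexes. The male effect minus the female effect was -2.28 ± 0.38 on the log2 scale (SE, edgeR, 95% interval -3.02 to -1.54, adjusted p = 0.0181), the smallest p of the 10538 genes in this comparison. Males minus females was 1.32 ± 0.29 with saline (adjusted p = 0.0716, 0.0433% of 13853 genes called) and -0.94 ± 0.25 with LPS (adjusted p = 0.111, 0.142% of 10538 genes called), neither passing alone. The sexes did not overlap at any of the 3 saline dates or any of the 3 LPS dates. At the LPS dates the females held 86.0 ± 14.8 CPM (SD, n = 3), 154 (n = 1) and 103 ± 14.4 (n = 2), and the males 44.3 ± 14.2 (n = 2), 59.9 ± 21.5 (n = 3) and 48.8 ± 2.10 (n = 2). With date as a block the sex difference of the LPS effect was -2.33 (edgeR adjusted p = 0.00151). With the saline libraries of 1 date at a time, fits added after seeing the data, it was -2.43 (adjusted p = 0.254), -2.03 (adjusted p = 0.0790) and -2.20 (adjusted p = 0.238), with the call lost in each. With sex taken from the characteristics it was -1.53 (adjusted p = 0.269).

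Markers of vessel cells moved in the same direction as the ligand between the sexes. The summed level of 14 endothelial markers had a median of 1208 CPM (884 to 3234) in female saline, 2131 (1886 to 3010) in male saline, 1639 (1208 to 2018) in female LPS and 1152 (680 to 1412) in male LPS libraries. None of the 14 was at 0 throughout a group. After LPS in males 9 of the 14 fell, where 7.57% of all genes did, with a median log2 change of -1.03 over the list against -0.07 over all genes, among them the tight junction gene Cldn5 (-4.91 ± 0.54), Egfl7 (-4.80 ± 0.48) and Pecam1 (-1.12 ± 0.22). In females Cdh5 (1.49 ± 0.25) and Tie1 (0.91 ± 0.27) rose and Egfl7 fell (-1.84 ± 0.41), where 4.17% of all genes rose and 0.892% fell, and the list median was 0.04 against -0.01 over all genes. In the sex by LPS comparison Cldn5 (-3.54 ± 0.71), Egfl7 (-2.95 ± 0.68) and Tie1 (-1.99 ± 0.39) were 3 of the 62 genes (0.588% of those tested) with a lower male effect, with a list median of -1.16 against -0.01 over all genes.

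Of 8 choroid plexus markers 6 passed the filter, with a list median of -1.41 in the sex by LPS comparison, in which 0 of the 6 were called. Library totals had medians of 974197 counts in female saline, 2376054 in male saline, 1062294 in female LPS and 912229 in male LPS libraries. With the endothelial sum as a covariate the sex difference of the Cx3cl1 effect was -1.97 ± 0.49 (SE, edgeR adjusted p = 0.322), with the choroid plexus sum -1.93 ± 0.36 (adjusted p = 0.0772) and with the library total -2.05 (adjusted p = 0.0452), all fits chosen after seeing the data. Whether the vessel and choroid plexus transcripts account for the difference was not tested. Leaving out 1 library at a time gave -2.39 to -2.06, and 7 of 25 such fits missed the threshold (female LPS 4 and 6, male LPS 2, 3, 4 and 7, male saline 3, with adjusted p from 0.0522 to 0.0760).

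Set against the endothelial counts, a measure added after seeing the data, the ligand was higher after LPS in both sexes. Per 1000 endothelial counts there were 11.8 ± 7.37 Cx3cl1 counts (SD, n = 7) in female saline, 63.8 ± 14.5 (n = 6) in female LPS, 19.1 ± 7.81 (n = 5) in male saline and 52.1 ± 14.8 (n = 7) in male LPS libraries. The log2 difference was 2.68 in females (two-sided exact permutation test, adjusted p = 0.00466 over 4 comparisons, n = 6 and 7) and 1.51 in males (exact permutation test, adjusted p = 0.00505, n = 7 and 5), and saline and LPS did not overlap in either sex. In males the endothelial sum itself was lower with LPS (median 1152 against 2131 CPM), while the ligand alone did not pass (0.46 ± 0.27). The male ratio thus had a lower denominator with LPS, and the part of the ligand in its rise was not tested. Between the sexes the log2 difference, male minus female, was 0.87 with saline and -0.30 with LPS (exact permutation test, adjusted p = 0.178 for both).

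**Figure D4:**
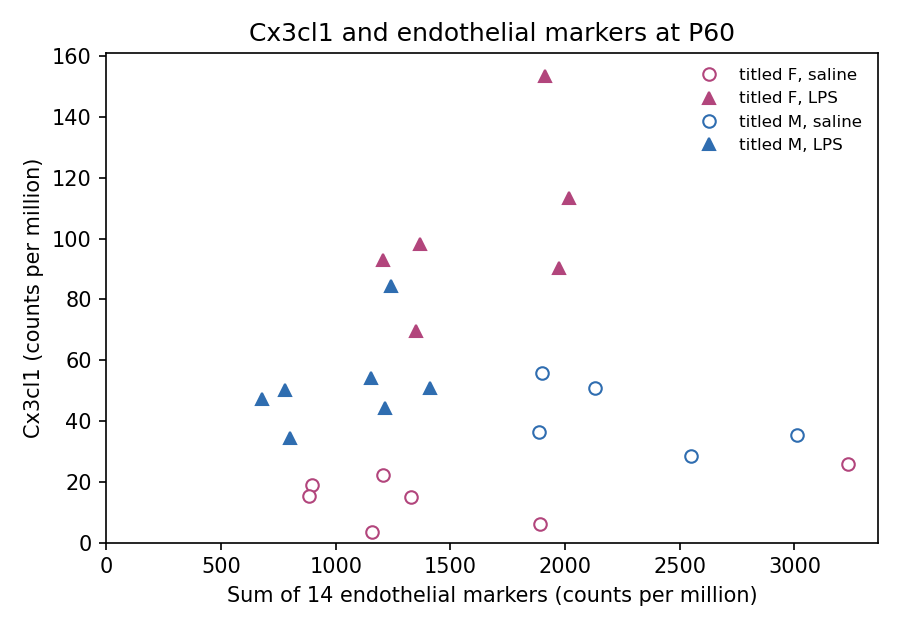
Cx3cl1 (vertical axis, CPM) against the summed level of 14 endothelial markers (horizontal axis, CPM) in the 25 libraries of P60, open circles saline and filled triangles LPS, coloured by sex in the title. Female LPS triangles lie above all female saline circles, over endothelial levels that overlap. Male LPS triangles (680 to 1412 CPM of endothelial markers) and male saline circles (1886 to 3010) share no endothelial level. Male saline circles lie further right than most female ones.

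The order of the levels differed between receptor and ligand. For Cx3cr1 it was E18, P4, P14, P60 with LPS and P60 with saline, from lowest to highest, and P60 with LPS and P14 were not separated (0.23 ± 0.18 on the log2 scale, SE, edgeR adjusted p = 0.306, 42.9% of 13807 genes called). For Cx3cl1, with both sexes together, it was P14, P60 with saline, E18, P4 and P60 with LPS. With the sexes averaged, of these neighbours only P60 with LPS was separated from the one below it (1.12 ± 0.21 over P4, edgeR adjusted p = 7.1e-06, 49.6% called). Within each sex the order of the Cx3cl1 means was another. In females the lowest was P60 with saline (15.3 CPM, against 26.2 at P14). In males P60 with saline (41.4) was above E18 (37.8). Female libraries had a mean Cx3cl1 of 103 CPM (69.6 to 154) with LPS and 40.1 (30.0 to 49.9) at P4. Male libraries overlapped, with 52.3 (34.3 to 84.4) and 50.6 (26.7 to 62.5). Per length, using transcripts of 3753 and 3315 bases, Cx3cr1 exceeded Cx3cl1 9.83-fold at E18, 36.8-fold at P4, 110-fold at P14, 161-fold at P60 with saline and 34.9-fold with LPS. Across the 60 libraries the log2 levels of the pair had a Pearson r of -0.09, and -0.33 after subtracting group means, from shared libraries and depths.

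**Figure D5:**
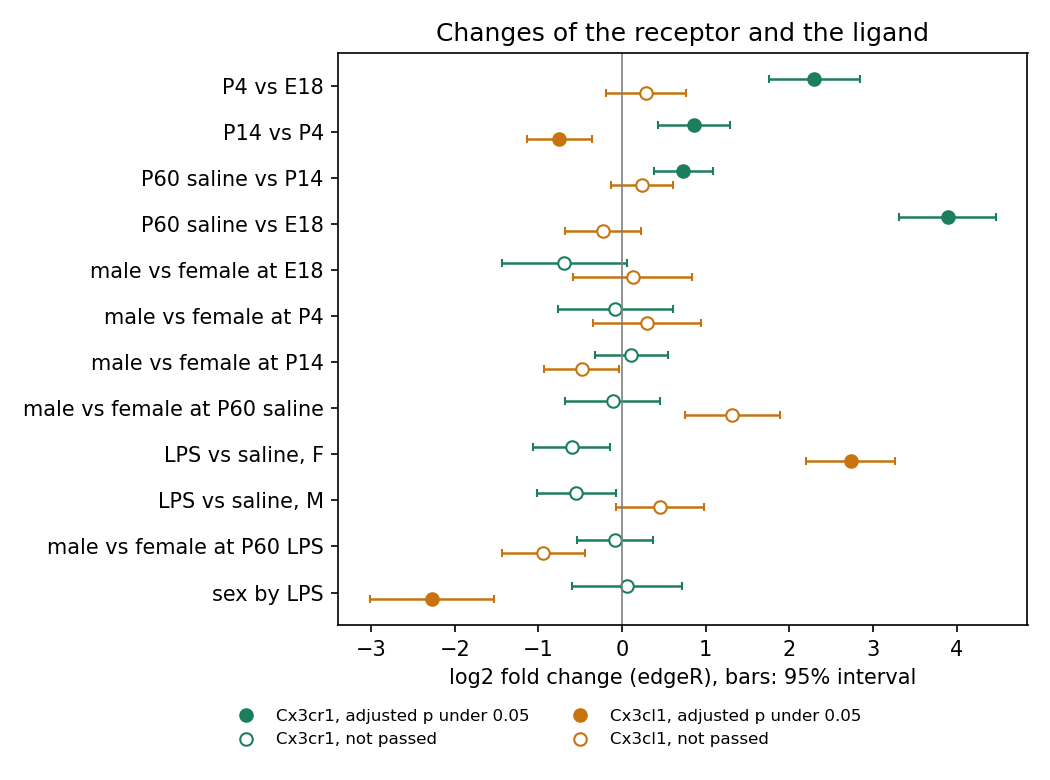
Log2 fold changes of Cx3cr1 and Cx3cl1 from edgeR (horizontal axis) for each comparison (vertical axis), with bars for the 95% interval and filled points where the adjusted p is under 0.05. Filled points are the receptor at the stage steps and the ligand at P14 against P4 (-0.75), with LPS in females (2.73) and in the sex by LPS difference (-2.28); the mean of the sexes, in which the receptor fell with LPS (-0.57), is not plotted.

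By sex, the receptor and the ligand gave no other call. Male minus female Cx3cr1 was -0.69 ± 0.38 at E18 (SE, edgeR adjusted p = 0.319, 0.0722% of genes called), -0.08 ± 0.35 at P4 (95% interval -0.77 to 0.61), 0.11 ± 0.22 at P14 (-0.32 to 0.55) and -0.11 ± 0.29 at P60 with saline (-0.69 to 0.46). Male minus female Cx3cl1 was 0.13 ± 0.36 at E18, 0.30 ± 0.33 at P4 and -0.48 ± 0.23 at P14 (p = 0.0418 before adjustment). The test of sex by age gave an adjusted p of 0.322 for Cx3cl1, the gene of rank 8 by p, and 0.728 for Cx3cr1, with 0% of genes called.

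The other genes of the pathway were taken as 4 lists with 29 members in the table. From E18 to P4, 18 of the 29 rose and 2 fell (median log2 change 0.88, against 0.03 over all genes, of which 25.5% rose and 22.7% fell). From P4 to P14, 10 rose and 2 fell (median 0.18 against -0.01, with 20.6% of all genes rising and 20.8% falling). From P14 to P60, 9 rose and 6 fell (median -0.05 against -0.06, with 18.5% rising and 25.7% falling). After LPS, 4 of the 29 rose in females, where 4.17% of all genes rose, and the list median was -0.03 against -0.01. In males 8 rose and 1 fell, where 11.9% of all genes rose and 7.57% fell, and the medians were 0.12 and -0.07.

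Of the 7 genes of ligand shedding and its control, the sheddases Adam10 (1.04 ± 0.17) and Adam17 (1.04 ± 0.14), and Ctss (0.96 ± 0.21), the gene of cathepsin S, which releases the soluble ligand, rose from E18 to P4. From P4 to P14 only Ctss of the 7 rose (1.28 ± 0.18) and 0 fell. From P14 to P60 Ctss (0.77 ± 0.14) and Timp3 (1.00 ± 0.20) rose, and Rhbdf2 (-1.77 ± 0.21) and Timp1 (-1.49 ± 0.57) fell. After LPS Timp1, a metalloprotease inhibitor gene, rose in females (4.60 ± 0.72) and males (3.90 ± 0.70), from a mean of 0.473 RPKM (CPM per kilobase of transcript) with saline to 10.6 RPKM with LPS, and Rhbdf2, which carries ADAM17 to the surface, rose by 1.32 ± 0.38 and 1.77 ± 0.39. Timp3, an inhibitor of ADAM17, rose in females (1.01 ± 0.27) and was -0.45 ± 0.28 in males, with a sex by LPS difference of -1.47 ± 0.38 (edgeR adjusted p = 0.0540).

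Of the 15 genes of receptor signalling, the phosphoinositide 3-kinase genes Pik3cg (2.47 ± 0.28) and Pik3r5 (1.62 ± 0.29), Plcb2 (2.05 ± 0.27) and Rgs10 (1.15 ± 0.21), a regulator of G protein signalling, were among 8 that rose from E18 to P4, and Src (-1.05 ± 0.20) and Akt1 (-0.49 ± 0.18) fell. From P4 to P14, 7 of 15 rose, among them Pik3r5 (1.78 ± 0.23), Rgs10 (1.32 ± 0.18) and the arrestin gene Arrb2 (1.05 ± 0.16). After LPS in males Pik3r5 (1.83 ± 0.34) and Gnai3 (0.59 ± 0.17) rose and Mapk3 fell (-0.69 ± 0.19), in a list whose median was -0.04. All 4 integrin partners of the ligand rose from E18 to P4, led by Itga4 (1.99 ± 0.26), which then fell at P14 (-1.54 ± 0.19) and P60 (-0.94 ± 0.19). Itgb3 rose at each of the 3 steps (1.45 ± 0.27, 0.65 ± 0.21 and 0.44 ± 0.18) and after LPS in males (0.91 ± 0.21).

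The 3 cytokine genes that the receptor is known to restrain rose from E18 to P4, by 2.25 ± 0.28 for Il1b, 1.86 ± 0.29 for Tnf and 3.24 ± 0.53 for Il6. At that step 7 of 9 neutrophil markers rose (median 3.11), where 25.5% of all genes rose. The neutrophil sum had a median of 318 CPM (198 to 1575) at E18 and 1354 (303 to 8636) at P4. After LPS Il6 rose in females (1.93 ± 0.41) and males (3.13 ± 0.45), and Il1b (2.44 ± 0.43) and Tnf (1.83 ± 0.37) rose in males. In females Il1b was 0.56 ± 0.37 and Tnf 0.54 ± 0.33 higher without passing. Neutrophil and classical monocyte markers also rose after LPS in both sexes, in the numbers given with the receptor, and their part in the cytokine changes was not tested. Cxcl16, the other chemokine made as a membrane-anchored form, rose from E18 to P4 (0.93 ± 0.22) and from P4 to P14 (1.23 ± 0.18). After LPS it was 0.62 ± 0.23 higher in females (adjusted p = 0.159) and rose in males by 1.41 ± 0.25 (adjusted p = 1.7e-04), with a sex by LPS difference of 0.79 ± 0.34 (edgeR adjusted p = 0.181), opposite in sign to that of Cx3cl1.

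Among 19 chemokine receptors measured per length, Cx3cr1 was the highest in every condition. In RPKM it stood at 114 at E18 against 22.8 for the next receptor, Cxcr4, and at 503 against 29.5 for Cxcr4 at P4. It was 743 at P14 and 1267 at P60 with saline, and with LPS 798 against 132 for Ccrl2. On the same scale Cx3cl1 was 11.6 at E18, 13.7 at P4, 6.76 at P14, 7.89 at P60 with saline and 22.8 with LPS, and Cxcl16 was 10.8, 19.5, 36.9, 32.4 and 61.4. Of the 10 other receptors that passed the filter, 5 rose and 1 fell from E18 to P4, where 25.5% of all genes rose and 22.7% fell. From P4 to P14, 4 rose and 2 fell (20.6% and 20.8% of all genes), and from P14 to P60, 4 rose and 3 fell (18.5% and 25.7%).

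The genes whose log2 CPM followed Cx3cr1 most closely over the 60 libraries, among 10142 genes, were Plxdc2 and Mtus1 (r = 0.973 for both), Itgam (0.969), a subunit of the macrophage integrin Mac-1, Mertk (0.968), a receptor for dying cells, Abca9 (0.967), Rasgrp3 (0.966), Pik3cg (0.964) and Pld1 (0.963). After subtracting group means r was 0.932 for Plxdc2, 0.919 for Itgam and 0.851 for Pld1. Stage is shared by these libraries, so a common course over the stages follows from how the genes were chosen. After LPS Plxdc2 was -0.15 ± 0.18 in females and -0.04 ± 0.19 in males, while Mtus1 fell in females (-0.64 ± 0.18). Against marker sums, Cx3cr1 had an r of 0.959 with the pan-myeloid and 0.946 with the microglial genes. With the border macrophage and classical monocyte sums r was -0.43 and -0.64, and 0.208 and -0.267 after subtracting group means. With the patrolling monocyte sum, mostly Ace and Nr4a1, r was 0.117, and -0.049 after subtracting group means.

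Cx3cl1 had no match of that closeness. It had 3 to 162 counts per library, against 74 to 18820 for Cx3cr1. Counting error lowers r more at such counts, and its part in the lower values was not tested. The genes nearest to Cx3cl1 were Zfp46 (r = 0.794), Vcam1 (0.779), an adhesion molecule of activated endothelium, Stra6 (0.774), Akap12 (0.773), Gm16548 (0.760), Steap4 (0.759), Robo4 (0.753), an endothelial receptor, and Sgms2 (0.748). After subtracting group means r was 0.366 for Zfp46, 0.463 for Vcam1 and 0.662 for Sgms2. After LPS Vcam1 rose in females (3.53 ± 0.32) and males (2.32 ± 0.34), Akap12 by 5.38 ± 0.31 and 3.88 ± 0.32, and Robo4 in females (2.07 ± 0.35) with 0.50 ± 0.34 in males. With the endothelial sum Cx3cl1 had an r of -0.02 over the 60 libraries and 0.355 after subtracting group means, and with the choroid plexus sum 0.433 and 0.550. The r after subtracting group means was as high for other marker lists. It was 0.541 with the patrolling monocyte sum, mostly Ace and Nr4a1, 0.416 with oligodendrocyte lineage and 0.343 with neuronal markers. With the microglial and pan-myeloid sums it was -0.558 and -0.402.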

How the data were processed

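RNA from mouse microglia was extracted with Trizol and sequenced from stranded polyA libraries, per the labels' protocols. The authors deposited integer counts per transcript for 60 libraries. Per the submitters' processing notes CASAVA 1.8.2 and edgeR were used on mm9; the aligner and counting program are not stated in the labels or file headers. For each of 22869 symbols the row marked best in the table was used, or the row of most counts for 881 without a mark, from 28644 rows. CPM divides by the total of these counts.

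The untreated and saline libraries (8 groups) and the P60 libraries (4 groups) were fitted separately with edgeR 4.0.16 (TMM, default filter, robust quasi-likelihood, two-sided, Benjamini-Hochberg, threshold 0.05), tested on simulated data, and all 60 together for LPS against earlier stages. Alternatives used DESeq2 1.42.0, limma 3.58.1, other scalings, filters and library sets. Per-marker ratios used exact or 100000-resample permutation tests after adding 0.5 counts. Lengths came from GENCODE vM21. Similar genes had at least 10 CPM on average and the highest r, and list members named were up to 4 of smallest p per direction, with Ctss, Timp3, Tnf and Pecam1 picked by their values or for contrast. Values of some list members are not reported here. Members and lists were chosen with earlier results of these data known. Same-numbered P4 libraries of both sexes shared a date (r 0.352 to 0.441 between their deviations from group means), so numbers pair the sexes there. At P14 same-numbered libraries shared a date in 10 of 10 pairs, with several numbers per date, and r passed 0.1 in 8. Female E18 and P4 numbers met the 0.1 limit in 3 of 3 pairs, male ones in 2 of 4. Saline and LPS numbers did not pair.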

Additional observations from a re-analysis of the deposited data

Results flagged for a closer look

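In male P60 LPS library 5, Cx3cl1 stood at 84.4 CPM, apart from the other 6 male LPS libraries (34.3 to 54.3 CPM) by Dixon's criterion; 18 sets of values were examined this way and chance marks about 1 in 20. The effect of LPS on Cx3cl1 differed between the sexes, with a male minus female difference of -2.28 on the log2 scale by the edgeR test of that difference.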

How the results depend on the processing

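Over 39 results and their alternatives, 1251 of 1323 repeats kept direction and side of the threshold; 29 lost the call, 19 gained it and 24 changed sign. For values not given a cause here, the cause was not tested.

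The Cx3cl1 sex by LPS difference lost its call with sex from the characteristics (-1.53), with endothelial (-1.97) or choroid plexus covariates (-1.93) and with the saline libraries of the first (-2.43), second (-2.03) or the third date alone (-2.20). The Cx3cr1 LPS fall lost it with the library total as a covariate (-0.50), with LPS libraries of the first (-0.39), second (-0.77) or the third date (-0.57) and with saline libraries of the first (-0.31) or the third (-0.21). Cx3cr1 lost the P4 to P14 rise with the second P14 date alone (0.36) and the P14 to P60 rise with the third P14 date (0.22) or the first (0.56) or the third (0.43) saline date. Cx3cl1 lost its P14 fall with the first P14 date alone (-0.64). These single-date fits hold fewer samples. The ratio to microglial in place of pan-myeloid markers gave -0.45 for P14 against P4, now passing, and -0.22 for LPS in females, no longer passing.

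Calls were gained for Cx3cl1 between the sexes with saline in DESeq2 (1.33), limma-voom (0.98) and all 60 libraries together (1.31), and with LPS in DESeq2 (-0.93), limma-voom (-0.97) and with a date block (-1.08). Limma-voom also passed Cx3cl1 at P4 against E18 (0.45), after LPS in males (0.55) and for sex by age (adjusted p = 0.0127), and Cx3cr1 after LPS in females (-0.72). Scaling by library totals only passed Cx3cl1 at P60 against E18 (-0.60) and Cx3cr1 after LPS in males (-0.68). The latter also passed with the second LPS date alone (-1.17) and with choroid plexus as a covariate (-0.72).

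None of the changes of sign were called on either side. They were Cx3cl1 by sex at E18 (limma-voom -0.50, library totals -0.048, without libraries of high Ttr -0.19, date block -0.17), Cx3cl1 at P60 against E18 with the first saline date (0.059), Cx3cr1 by sex at P4 with sex from the characteristics (0.0096), and Cx3cr1 by sex with saline, with endothelial (0.21) or choroid plexus covariates (0.10). For Cx3cr1 sex by LPS they were -0.046 with library totals, -0.49 and -0.26 with those covariates, and -0.11 and -0.068 with the second and the third saline dates.

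The replicate block moved the Cx3cr1 LPS fall to -0.55 (edgeR adjusted p = 0.0649) and passed Cx3cr1 at P60 with LPS against P14 (0.51); it changed no other call, and Cx3cl1 sex by LPS was -2.39 (adjusted p = 0.0159).

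Leaving out 1 library at a time gave, over all such fits of a result, -2.39 to -2.06 for Cx3cl1 sex by LPS (7 of 25 calls lost), -0.63 to -0.47 for the Cx3cr1 LPS fall (3 of 25 lost, without female LPS library 2, male saline library 2 or male saline library 5) and 1.17 to 1.45 for Cx3cl1 by sex with saline, which passed without female saline library 3 or 7. For Cx3cl1 sex by age the adjusted p ran from 0.0304, without male E18 library 2, to 0.633. Signs changed, without a call, for Cx3cl1 by sex at E18 (-0.16 to 0.33), for Cx3cr1 by sex at P4 (-0.39 to 0.091) and with LPS (-0.20 to 0.025), and for Cx3cr1 sex by LPS (-0.047 to 0.23). No other result changed its call or sign when 1 library was left out. Cx3cl1 had 3 to 162 counts per library and Cx3cr1 74 to 18820, and for both the SD expected from counting was below the observed SD in all 10 groups.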
